A study of Mus musculus with 12 samples.

Results

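Integrins are cell surface receptors made of one alpha and one beta chain, which link the extracellular matrix and other cells to the actin cytoskeleton. The pair of chains sets the ligand, and the beta 1 chain joins most alpha chains of muscle cells. In skeletal muscle, alpha 7 beta 1 is the main laminin receptor of the fibre, and alpha 4 beta 1 binds VCAM1 and fibronectin. The genes described here encode 10 integrin subunits of myoblasts, chosen as a list of names (Itga3, Itga4, Itga5, Itga6, Itga7, Itga9, Itgav, Itgb1, Itgb3 and Itgb5), of 25774 genes to which deposited transcripts were matched. All 10 were found, and 9 passed the filter on low values, against 13076 genes in all.

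Poly(A) RNA was sequenced from C2C12 cells, an established mouse myoblast line that differentiates when serum is lowered, in 4 groups of 3 libraries. The D2 siKctd10 and D2 siControl groups were differentiating cells, moved into medium with 2% horse serum 24 h after siRNA. The D0 siKctd10 and D0 siControl groups were undifferentiated cells, kept below confluence in medium with 10% serum. Cells of both siKctd10 groups received a single siRNA against Kctd10, whose protein brings substrates to CUL3 ubiquitin ligases, and cells of both siControl groups received a non-targeting siRNA. The protocols give 48 h of siRNA for every sample, which does not match 2 days in the differentiation medium, so the age of the knockdown at D2 is uncertain. The labels do not say whether the replicates of a group were separate cultures. The p-values then measure spread among these libraries only, and that spread may be technical. Day, medium and density changed together between D2 and D0 and cannot be told apart.

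The sense strands of both siRNAs are shown because every siKctd10 value here rests on 1 siRNA. Capitals mark the stretch that pairs with bases 2 to 8 of the antisense strand, the seed by which an siRNA can also bind other messages.
siKctd10: ccagcaauucuGACGAUAa
siControl: ugguuuacaugUUUUCUGa
The siKctd10 stretch, read as GACGATA on the sense strand, was looked for in the 3′ UTR of the most abundant transcript of each gene (GENCODE M21). It was in 0 of 9 members and in 0.841% of 11061 genes, so its absence from these windows is a description only.

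Assigned read pairs, estimated from coverage, numbered 12510887 to 18082111 per library. Abundance is given as TPM, a share of all transcripts that is corrected for transcript length. Levels of different genes can be compared only roughly, since many short exons were listed with coverage near 0 in these files. Kctd10 was at 34.3, 26.8 and 35.1 TPM in D2 siKctd10 libraries, against 285, 276 and 289 TPM in D2 siControl libraries. Its D0 levels were at most 24.8 TPM with siKctd10, against 272, 258 and 269 TPM with siControl, and the log2 fold change was -3.12 at D2 and -3.48 at D0 (limma adjusted p = 1.97e-06 and 6.77e-07). All 6 myoblast markers were expressed in every group. Summed TPM of 7 markers of differentiating muscle lay between 1155 and 1517 in D2 siKctd10 libraries, 2070 and 2139 in D2 siControl libraries, 16.2 and 28.1 in D0 siKctd10 libraries, and 18.3 and 31.4 in D0 siControl libraries. The 4 adipocyte markers were listed at 0 throughout. Summed markers reached at most 2.90 TPM for 7 leukocyte genes, 1.65 TPM for 5 endothelial genes and 3.15 TPM for 4 epithelial genes in any library. Of these lists, Ptprc, Kdr and Epcam were at 0, while Cd68 reached 2.32 TPM, Tek 1.51 TPM and Cdh1 3.11 TPM. The sum of 5 Schwann and neural markers, nearly all from Tubb3, lay between 77.2 and 92.3 TPM in D2 siKctd10 libraries, 98.1 and 116 TPM in D2 siControl libraries, 53.7 and 57.9 TPM in D0 siKctd10 libraries, and 97.9 and 108 TPM in D0 siControl libraries. It was lower with siKctd10 on both days. The epithelial sum lay between 2.17 and 3.15 TPM in D2 siKctd10 libraries and 0.835 and 1.67 TPM in D2 siControl libraries. The part of either list in the results below was not tested.

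The beta 1 chain was the most abundant member in every group by mean TPM, at 764 in D2 siKctd10, 751 in D2 siControl, 616 in D0 siKctd10 and 761 in D0 siControl cells. Among alpha chains, alpha 7 led at D2, with means of 371 TPM in siKctd10 and 537 TPM in siControl cells. Alpha v led at D0 by mean TPM, with 246 TPM in siKctd10 and 193 TPM in siControl cells, an order that differed in the exon measure described below. Alpha 4 was the lowest of the 9 kept members at D0, with means of 1.57 TPM in siKctd10 and 2.97 TPM in siControl cells. Alpha 9, a chain that binds tenascin and VCAM1 and pairs with beta 1, was the 1 member left out by the filter. It was listed at 0 in all D2 siKctd10 libraries, against 0.0488, 0.114 and 0.102 TPM in D2 siControl libraries, and at most 0.0244 TPM at D0, levels too low for a comparison.

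Between siKctd10 and siControl cells at D0, Itga3 was the single member that passed the test (limma, Benjamini-Hochberg over all kept genes, adjusted p under 0.05), and it was higher with siKctd10. That is 1 of 9 kept members, where 2.45% of all 13076 kept genes passed, 1.48% higher and 0.964% lower. At D2, 4 of 9 passed, where 4.75% of all kept genes did. Itga3 was the 1 member higher with siKctd10, where 2.83% of all kept genes were higher, and Itga4, Itga6 and Itga7 were the 3 lower ones, where 1.92% of all kept genes were lower. The summed markers of differentiating muscle given above were also lower in D2 siKctd10 than in D2 siControl libraries, and their part in the 3 lower values was not tested. The median log2 fold change of the 9 members was 0.13 at D0 and 0.05 at D2, beside medians over all kept genes of 0.05 at D0 and 0.08 at D2. Of all genes called, 60.6% were higher with siKctd10 at D0 and 59.6% at D2, and with median-ratio scaling these shares were 47.6% and 39.4%. Every member call named here kept its direction under that scaling.

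**Figure D1:**
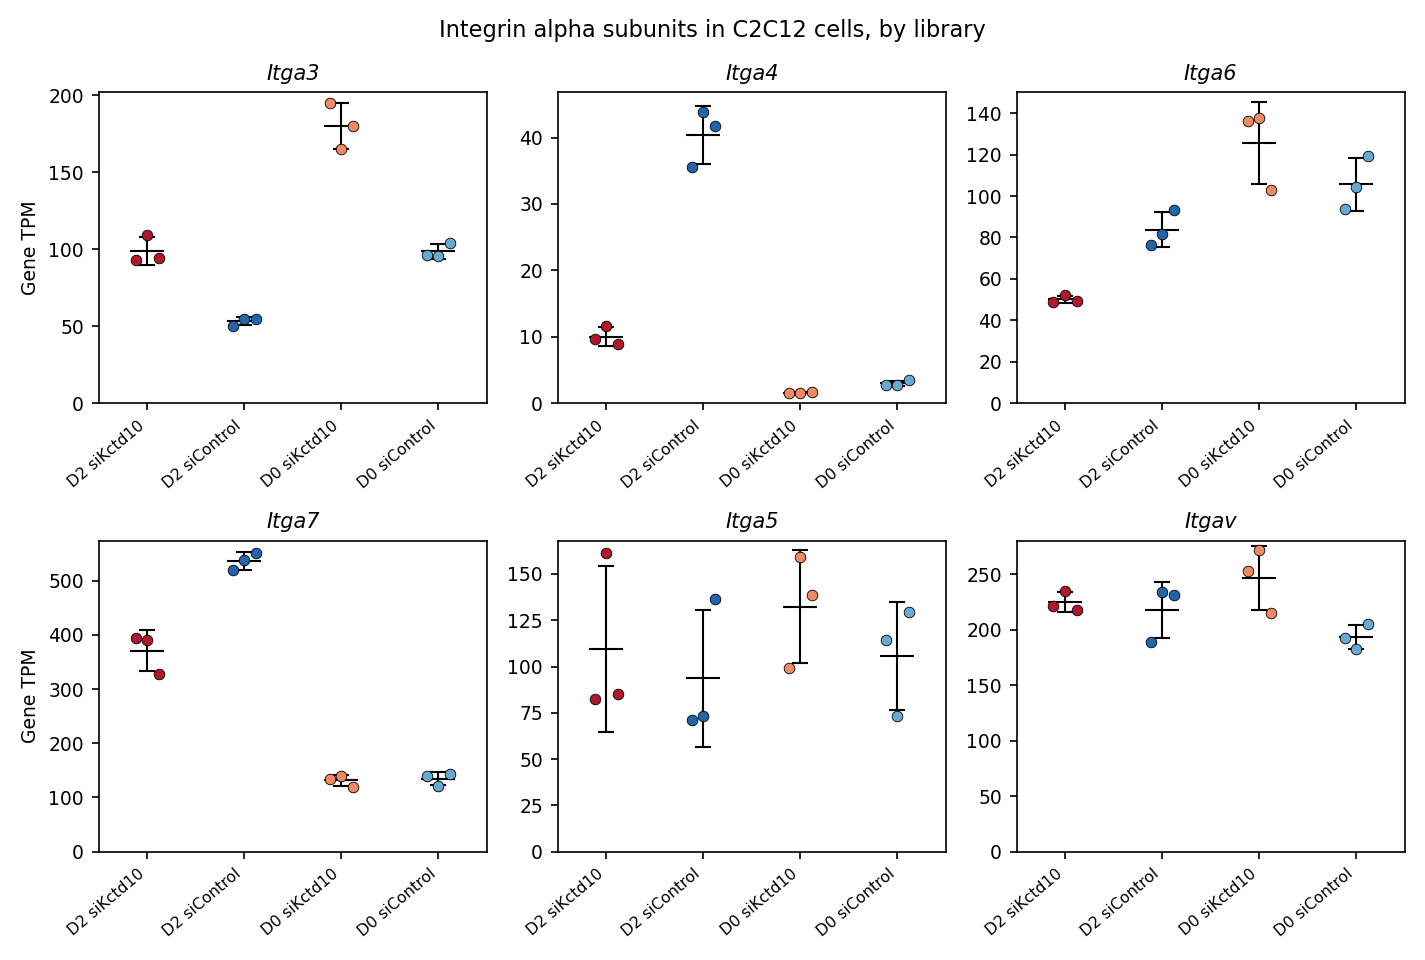
Gene TPM of 6 integrin alpha subunits in each library, with the axis of each panel starting at 0. Circles are libraries, horizontal lines are means and error bars are SD (n = 3 each). The siKctd10 libraries lie above the siControl libraries of the same day for Itga3, and below those of D2 for Itga4, Itga6 and Itga7.

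Itga3 encodes alpha 3, a laminin receptor chain that pairs with beta 1 (ENSMUSG00000001507.16, GRCm38 chr11:95044474-95076801, minus strand). At D2 it was at 92.9, 109 and 94.0 TPM in siKctd10 libraries, against 50.3, 54.8 and 54.8 TPM in siControl libraries. Before differentiation Itga3 was at 195, 165 and 179.8 TPM in siKctd10 libraries, against 96.0, 95.9 and 104 TPM in siControl libraries. On both days each siKctd10 library lay above each siControl library, and the D2 siKctd10 libraries (mean 98.7 ± 9.14 TPM) overlapped the D0 siControl libraries (mean 98.7 ± 4.76 TPM, SD, n = 3 each). The log2 fold change was 0.87 at D2 (SE 0.09, limma adjusted p = 0.00105) and 0.86 at D0 (SE 0.09, limma adjusted p = 0.00131), and the interaction of day and siRNA was 0.02 (95% interval -0.27 to 0.30, limma adjusted p = 0.986). The two-sided exact permutation test of each single comparison gave p = 0.1, the smallest that 3 against 3 allows. The order of the groups was D0 siKctd10, then D2 siKctd10 and D0 siControl with overlapping libraries, then D2 siControl. All fold changes were computed on log2(TPM + 1), so that those of genes with few reads come out too small. A difference between such changes, as in an interaction, can then come out too large. In bulk RNA, fewer cells of a type and less RNA per cell cannot be told apart.

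Itga3 fell with differentiation in both arms, by 0.86 in siKctd10 cells (SE 0.09, limma adjusted p = 5.76e-05) and by 0.88 in siControl cells (SE 0.09, limma adjusted p = 4.66e-05) on the log2 scale. Of the 3 transcripts listed for Itga3, the form of 26 exons held 93.6 to 100% of its TPM. That transcript was higher with siKctd10 by 0.83 at D2 (limma adjusted p = 0.00182 over 18409 transcripts) and by 0.88 at D0 (limma adjusted p = 0.00135). Another form, which starts at a different first exon, stayed at or below 8.69 TPM, and the remaining one was listed at 0 in every library. Exon coverage was read as reads per base, scaled to a common total per library. The last exon of 1289 bases had 262, 238 and 227 scaled reads per base in D2 siKctd10 libraries, against 154, 144 and 149 in D2 siControl libraries. Its D0 coverage was 496, 484 and 457 with siKctd10, against 266, 286 and 289.6 with siControl. In each of the 5 exons of at least 202 bases the siKctd10 and siControl libraries did not overlap on either day. That length is the one that a read pair covers, inferred from the files.

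Itga4 encodes alpha 4, which pairs with beta 1 or beta 7 (ENSMUSG00000027009.18, GRCm38 chr2:79255426-79333123, plus strand). At D2 it was at 9.60, 11.6 and 8.84 TPM in siKctd10 libraries, against 35.6, 43.9 and 41.7 TPM in siControl libraries. The D0 levels were 1.48, 1.55 and 1.70 TPM in siKctd10 libraries, against 2.73, 2.71 and 3.47 TPM in siControl libraries. The groups did not overlap on either day. The order of the 4 groups was D2 siControl, D2 siKctd10, D0 siControl and D0 siKctd10, with no overlap between neighbours.

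Between siKctd10 and siControl cells Itga4 changed by -1.91 on the log2 scale at D2 (SE 0.14, limma adjusted p = 0.000137). At D0 it was -0.62 (SE 0.14, limma adjusted p = 0.0515), just outside the threshold. The difference between D2 and D0 was 2.09 in siKctd10 cells (SE 0.14, limma adjusted p = 2.76e-06) and 3.38 in siControl cells (SE 0.14, limma adjusted p = 1.04e-07). The interaction of day and siRNA was -1.29 (SE 0.20, limma adjusted p = 0.0194). This was the 1 interaction called among 9 members, where 0.742% of all kept genes were called, 0.375% with a positive and 0.367% with a negative term. With 0.1 in place of 1 added to TPM, the D0 change was -0.87 and the interaction -1.14 (limma adjusted p = 0.0763). Adding 1 thus made the interaction larger. The interaction call was lost in 7 of 21 planned settings, with a limma adjusted p of at most 0.0763. Among them were the fits without D0 siControl replicate 1 or 2 (limma adjusted p = 0.0552 and 0.0512), without D2 siControl replicate 2 or 3 (0.0568 and 0.0589) and without D2 siKctd10 replicate 1 (0.0592). In the exon-centred level, an unplanned measure described below for Itga7, the interaction was -1.22 and not called (SE 0.37, limma adjusted p = 0.281). The D2 change with siKctd10 was -1.60 in that level (SE 0.26, limma adjusted p = 0.0110).

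Coverage of Itga4 was read best in its last exon, of 6595 bases, since its first exon stayed at or below 6.21 scaled reads per base. The last exon had 16.5, 18.1 and 13.5 scaled reads per base in D2 siKctd10 libraries, against 62.2, 73.5 and 71.8 in D2 siControl libraries. Its D0 coverage was 2.75, 2.83 and 3.06 with siKctd10, against 5.40, 5.16 and 6.22 with siControl. Of the 5 transcripts listed, the form of 28 exons that holds this exon took 89.9 to 100% of Itga4 TPM, and its log2 fold change at D2 was -1.94 (SE 0.15, limma adjusted p = 0.000213 over 18409 transcripts). No transcript listed for Itga4 rose in place of it with siKctd10, since the others stayed at or below 1.43 TPM in every library.

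The promoters of Itga4 and Itga3 are shown because these genes had the largest called fall and the only called rise among the members at D2. Each window runs from 250 bases before to 50 bases after the RefSeq start (GRCm38.p6), with matches to CANNTG in capitals. CANNTG is the E-box, a motif class that myogenic factors bind, and it reads the same on both strands.
Itga4 promoter, chr2:79255176-79255475, plus strand: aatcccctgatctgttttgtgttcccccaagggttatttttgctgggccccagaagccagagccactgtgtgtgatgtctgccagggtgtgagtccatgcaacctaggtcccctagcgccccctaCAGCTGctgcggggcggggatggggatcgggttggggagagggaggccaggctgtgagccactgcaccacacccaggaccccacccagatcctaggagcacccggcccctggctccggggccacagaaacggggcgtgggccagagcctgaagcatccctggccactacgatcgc
Itga3 promoter, chr11:95076665-95076964, minus strand: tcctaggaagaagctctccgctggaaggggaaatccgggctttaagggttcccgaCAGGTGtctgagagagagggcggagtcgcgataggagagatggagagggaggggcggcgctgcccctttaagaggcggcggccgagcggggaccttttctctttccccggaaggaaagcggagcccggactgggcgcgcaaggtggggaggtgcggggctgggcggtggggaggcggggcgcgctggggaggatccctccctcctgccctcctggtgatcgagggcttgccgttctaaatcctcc
Each window held 1 CANNTG. The Itga4 match was CAGCTG, which is also counted as CANNTG and began 125 bases before the start. Of 32851 RefSeq promoter windows used here, 72.3% held a CANNTG and 16.3% held a CAGCTG. These letters are a description of the windows, and no binding was measured.

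Itga7 encodes alpha 7, the laminin receptor chain of muscle fibres (ENSMUSG00000025348.9, GRCm38 chr10:128933818-128958282, plus strand). At D2 it was at 395, 390.3 and 328 TPM in siKctd10 libraries, against 519.6, 538 and 552 TPM in siControl libraries. Undifferentiated cells had 135, 139.7 and 120.2 TPM in siKctd10 libraries, against 140.4, 121 and 144 TPM in siControl libraries. The siRNA groups did not overlap at D2 and overlapped at D0. Both arms were higher at D2 than at D0, by 1.49 on the log2 scale in siKctd10 cells (SE 0.10, limma adjusted p = 2.62e-06) and by 1.99 in siControl cells (SE 0.10, limma adjusted p = 3.38e-07). The order was D2 siControl, D2 siKctd10 and then both D0 groups, which overlapped each other.

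Between siKctd10 and siControl, the log2 fold change of Itga7 was -0.54 at D2 (SE 0.10, limma adjusted p = 0.0146) and -0.04 at D0 (SE 0.10, limma adjusted p = 0.907). The interaction was -0.50 (SE 0.14, limma adjusted p = 0.188), so a difference between the days was not called. The D2 call missed the threshold without D2 siControl replicate 2 (limma adjusted p = 0.0534), without D2 siControl replicate 3 (0.0519) and when only the D2 groups were fitted (0.0551).

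Itga7 has a pair of alternative coding exons between exons 4 and 6, of 120 and 132 bases, in an extracellular part of the chain. They are shown with the 15 shared bases on each side in lower case and the alternative exon in capitals (GRCm38, plus strand, bases from GENCODE M21 transcripts).
Itga7 120-base exon, chr10:128941822-128941941: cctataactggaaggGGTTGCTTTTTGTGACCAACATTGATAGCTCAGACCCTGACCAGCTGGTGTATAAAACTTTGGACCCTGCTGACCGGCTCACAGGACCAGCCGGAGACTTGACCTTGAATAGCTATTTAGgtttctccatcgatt
Itga7 132-base exon, chr10:128941445-128941576: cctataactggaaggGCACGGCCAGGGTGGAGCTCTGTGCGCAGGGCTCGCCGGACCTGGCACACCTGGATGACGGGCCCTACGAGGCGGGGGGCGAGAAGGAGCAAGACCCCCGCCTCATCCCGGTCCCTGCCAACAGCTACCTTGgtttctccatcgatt
The transcript with the 132-base exon was given 87.1 to 94.1% of Itga7 TPM, yet the exon coverages ran the other way.

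In D2 siKctd10 libraries the 120-base exon had 342, 496 and 244 reads per base, and the 132-base exon had 42.7, 57.9 and 44.5. In D2 siControl libraries the 120-base exon had 546, 414 and 377, and the 132-base exon had 68.5, 38.9 and 44.3. At D2 the siRNA groups overlapped in these unscaled values of each exon. In D0 siKctd10 libraries the values were 111, 109 and 63.5 for the 120-base exon and 23.3, 22.3 and 19.9 for the 132-base exon. In D0 siControl libraries they were 109.9, 92.8 and 119.9 for the 120-base exon and 15.6, 12.4 and 15.9 for the 132-base exon. The 120-base exon was the better covered one in all 12 libraries, so the deposited split between the transcripts is uncertain and the gene sum was used.

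As a share of the coverage of both exons, the 120-base exon took 88.9, 89.6 and 84.6% in D2 siKctd10 libraries, against 88.9, 91.4 and 89.5% in D2 siControl libraries. The D0 shares were 82.6, 83.01 and 76.1% in siKctd10 libraries, against 87.6, 88.2 and 88.3% in siControl libraries. The siRNA groups did not overlap at D0 and overlapped at D2. This difference was noticed after its values were seen and was not tested. Both exons are shorter than a read pair, a class in which 71.6% of 10393 exons of well covered single transcripts had a listed coverage under 1 in D0 siControl replicate 1, against 4.3% of 3758 longer exons.

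**Figure D2:**
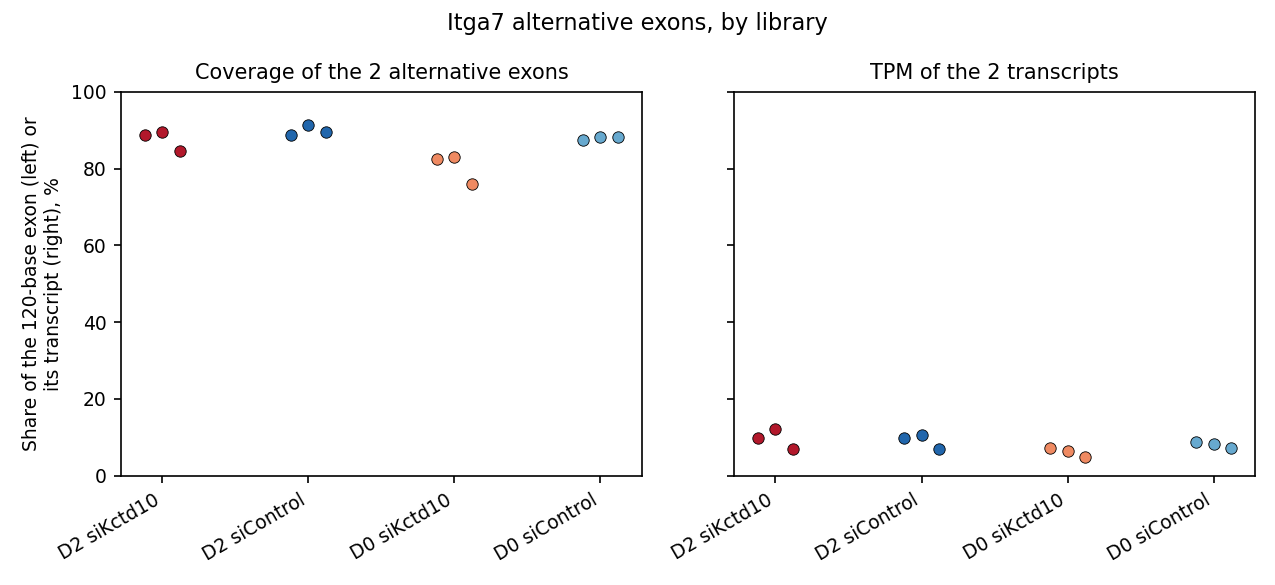
Share of the 120-base alternative exon of Itga7 in the summed coverage of both alternative exons (left) and share of its transcript in the summed TPM of both transcripts (right), in percent, for each of the 12 libraries. The exon shares lie between 76.1 and 91.4%, and the TPM shares of the same form between 4.90 and 12.1%.

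Both forms share the long exons of Itga7. The first of them, of 382 bases, had 702, 831 and 745 scaled reads per base in D2 siKctd10 libraries, against 1035, 937 and 1067 in D2 siControl libraries. In D2 siKctd10 replicate 2 the last exon of 664 bases was listed at 0.1, against 689 and 686 in the other D2 siKctd10 libraries. An exon of 256 bases was also near 0 there, at 7.12, against 400 and 306. The exon of 208 bases was at 522 in that library, against 472 and 451, and its gene TPM was in the range of its group. A further measure, chosen after seeing the data and called the exon-centred level here, takes for each library the median deviation of the long exons from their own means over all libraries, on the log2 scale, and adds the mean level of those exons. By it that library lay at 76.3, against 534 and 481 in the others, and no Itga7 comparison between siRNAs or days was called (limma adjusted p = 0.234 for siKctd10 at D2). The median over 4 long exons is pulled down in that library by the exons listed near 0, so this measure cannot decide the changes of Itga7.

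Itga6 encodes alpha 6, a further laminin receptor chain (ENSMUSG00000027111.15, GRCm38 chr2:71745616-71858416, plus strand). Differentiating cells had 48.9, 52.1 and 49.2 TPM in siKctd10 libraries, against 76.4, 81.7 and 93.3 TPM in siControl libraries. Its D0 levels were 136, 138 and 103 TPM in siKctd10 libraries, against 93.6, 104 and 119 TPM in siControl libraries. The siRNA groups did not overlap at D2 and overlapped at D0. The log2 fold change was -0.73 at D2 (SE 0.13, limma adjusted p = 0.0144), 0.24 at D0 (SE 0.13, limma adjusted p = 0.426), and the interaction was -0.97 (SE 0.19, limma adjusted p = 0.0537).

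Between days, Itga6 fell by 1.3 on the log2 scale in siKctd10 cells (SE 0.13, limma adjusted p = 4.71e-05). In siControl cells the difference was -0.33 (SE 0.13, limma adjusted p = 0.0842). A 4-exon transcript of Itga6 was listed at 25.6 TPM in D0 siKctd10 replicates 1 and 2, at 17.9 TPM in D2 siControl replicate 3 and at 0 in the other libraries, and it is part of the gene sum. This form ends in an exon of 945 bases that contains a 256-base exon of the long form, and in the 3 libraries where it was listed the 256-base exon was at 0, so reads were assigned to one or the other. The last exon of the long form, of 2574 bases, is outside that overlap. It had 118, 119 and 109.6 scaled reads per base in D2 siKctd10 libraries, against 196, 204 and 180.5 in D2 siControl libraries, with no overlap. Coverage of the same exon at D0 was 299, 290.2 and 237 with siKctd10, against 248, 264 and 280.0 with siControl, with overlap. The 26-exon form alone had a log2 fold change of -0.63 at D2 (limma adjusted p = 0.00763) and 0.04 at D0 (limma adjusted p = 0.905), and of -0.42 between D2 and D0 in siControl cells (limma adjusted p = 0.00610), each over 18409 transcripts. The gene-level D2 call missed the threshold without D2 siControl replicate 3 (limma adjusted p = 0.0522) or D2 siKctd10 replicate 1 (0.0517). In the exon-centred level, which takes in the 256-base and 945-base exons, the D2 change was -0.58 and not called (limma adjusted p = 0.0554). The difference between D2 and D0 in siControl cells was -0.52 in that level (limma adjusted p = 0.0177).

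**Figure D3:**
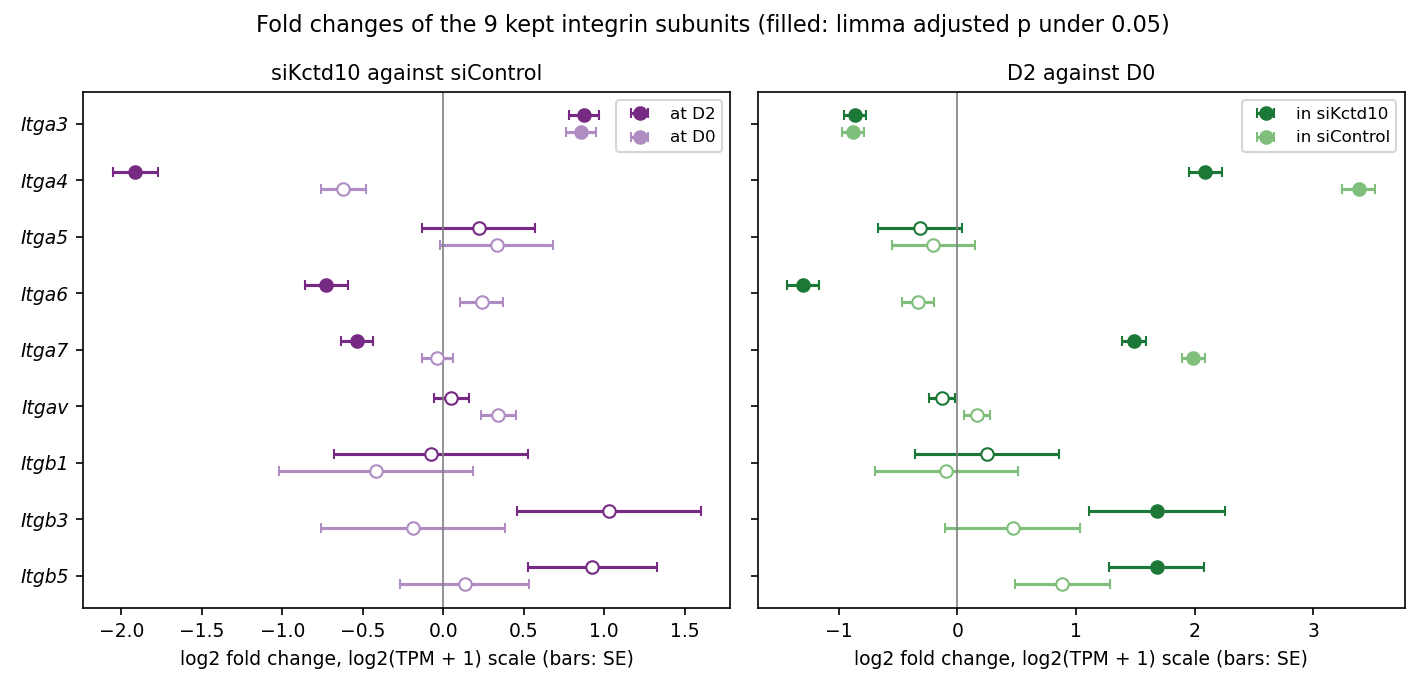
Log2 fold change with its SE of the 9 kept members on the log2(TPM + 1) scale, for siKctd10 against siControl (left, at D2 and D0) and D2 against D0 (right, in siKctd10 and siControl cells). Filled circles passed the limma threshold. The Itga3 effects of siKctd10 are 0.87 and 0.86, and those of Itga4 are -1.91 and -0.62.

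Alpha 5 and alpha v are receptor chains for fibronectin and for ligands such as vitronectin that carry an arginine-glycine-aspartate motif. Itgav (ENSMUSG00000027087.11, GRCm38 chr2:83724397-83806916, plus strand) was at 221, 235 and 218 TPM in D2 siKctd10 libraries, against 189, 234 and 231 TPM in D2 siControl libraries, and the groups overlapped. At D0 Itgav was at 253, 272 and 215 TPM in siKctd10 libraries, against 193, 183 and 205 TPM in siControl libraries, with no overlap. Its log2 fold changes of 0.05 at D2 (95% interval -0.19 to 0.29, limma adjusted p = 0.848) and 0.34 at D0 (95% interval 0.10 to 0.59, limma adjusted p = 0.152) were not called.

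Itga5 (ENSMUSG00000000555.8, GRCm38 chr15:103344286-103366763, minus strand) was at 82.6, 161 and 84.9 TPM in D2 siKctd10 libraries, against 71.0, 73.4 and 136 TPM in D2 siControl libraries. At D0 Itga5 was at 99.1, 159 and 139 TPM in siKctd10 libraries, against 114, 73.4 and 129 TPM in siControl libraries. Libraries fell into a high and a low class inside each group, and the low ones were those in which the last exon of 1067 bases was listed near 0. That exon had 0.49, 305 and 0.37 scaled reads per base in D2 siKctd10 libraries, against 0.87, 1.26 and 260.1 in D2 siControl libraries, and 0.09, 298 and 292 in D0 siKctd10 libraries, against 212, 0.63 and 251 in D0 siControl libraries. Itga5 was called in none of the 5 comparisons. Its 95% interval for siKctd10 against siControl at D2 ran from -0.57 to 1.01 on the log2 scale.

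Last exons listed near 0 were also found in all 3 beta chains. Itgb1, the shared partner of most alpha chains (ENSMUSG00000025809.15, GRCm38 chr8:128685654-128733200, plus strand), was at 1376, 349 and 566 TPM in D2 siKctd10 libraries, against 481, 539 and 1232 TPM in D2 siControl libraries. The D0 levels of Itgb1 were 1020.1, 301 and 525 TPM in siKctd10 libraries, against 472, 908 and 903 TPM in siControl libraries. Its last exon of 1557 bases was listed at 3133, 0.01 and 0.12 scaled reads per base in D2 siKctd10 libraries, against 569, 606 and 2810 in D2 siControl libraries. At D0 that exon was at 2269, 0.01 and 0.12 with siKctd10, against 421, 1981 and 1829 with siControl. An internal exon of 239 bases (GRCm38 chr8:128722384-128722622) was likewise listed high or near 0, at 1.43, 2.46 and 3663 in D2 siKctd10 libraries, against 24.7, 6.58 and 1.56 in D2 siControl libraries, and at 30.3, 4.6 and 3111 in D0 siKctd10 libraries, against 2798, 2896 and 2998 in D0 siControl libraries. Transcript coverage is the length-weighted mean over exons in these files, so the gene level depends on such exons. The SDs at D2 were 541 TPM in siKctd10 and 418 TPM in siControl cells.

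The exon-centred level over the 7 long exons of Itgb1 varied less, at 305, 248 and 244 in D2 siKctd10 libraries, against 281, 362 and 299.9 in D2 siControl libraries. The D0 values were 274, 281 and 330.0 with siKctd10, against 273, 224 and 231 with siControl. The exon-centred level of Itga7 in D2 siControl libraries was above that of Itgb1, at 851, 699 and 803, unlike the order by mean TPM. At D0 the exon-centred level of Itga7 was above that of Itgav, also unlike the order by mean TPM. Itga7 was at 235, 253 and 172 with siKctd10, against 197, 193 and 150 for Itgav. With siControl Itga7 was at 220, 238 and 238, against 144, 136 and 143 for Itgav. Itgb1 was called in no comparison by either measure. The log2 fold change of Itgb1 at D2 was -0.08 in TPM (95% interval -1.43 to 1.28, limma adjusted p = 0.968) and -0.24 in the exon-centred level (SE 0.13, limma adjusted p = 0.390). At D0 the sign differed between them, with -0.42 in TPM (limma adjusted p = 0.789) and 0.28 in the exon-centred level (limma adjusted p = 0.350).

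**Figure D4:**
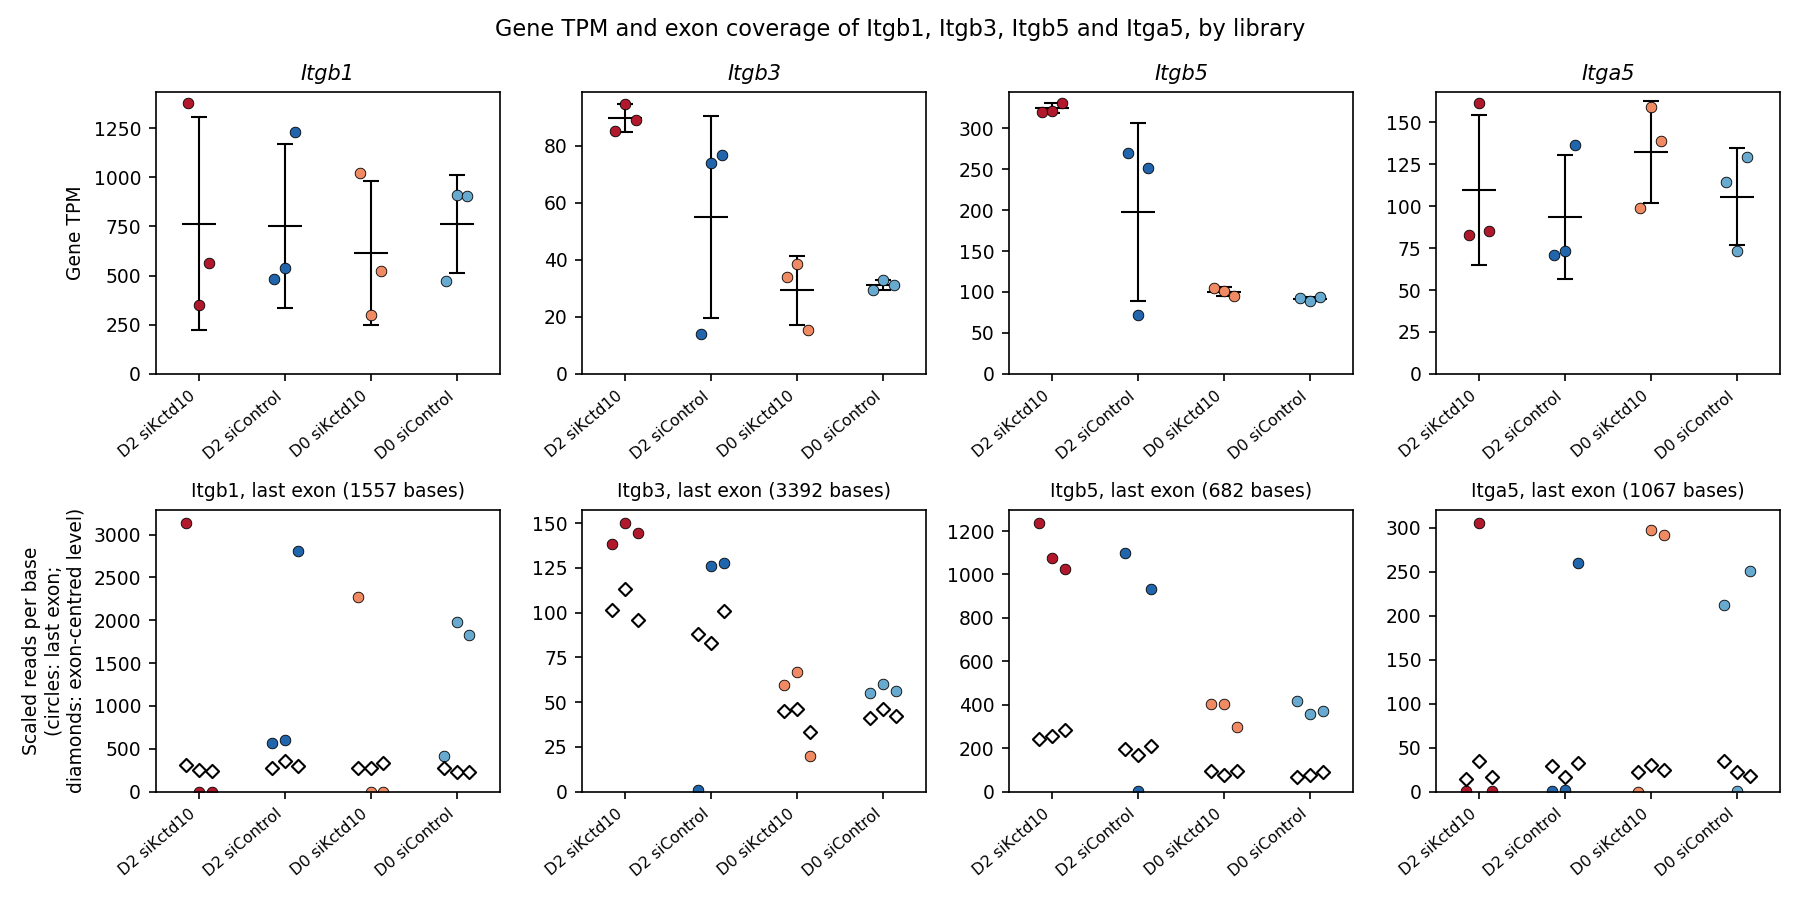
Gene TPM (top, circles with mean and SD, n = 3 each) and scaled reads per base (bottom) of Itgb1, Itgb3, Itgb5 and Itga5 in each library. In the lower panels circles are the last exon and diamonds the exon-centred level over exons of at least 202 bases. D2 siControl replicate 1 is low in both the last exon and the TPM of Itgb3 (13.9 TPM, against 74.0 and 76.7 TPM in the others). For Itgb1, D0 siControl replicate 1 has low TPM (472) with a last exon that is reduced but not near 0. That exon is at 421 scaled reads per base, against 1981 and 1829 in the other D0 siControl libraries.

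Itgb3 and Itgb5 encode beta 3 and beta 5, which pair with alpha v. Itgb3 (ENSMUSG00000020689.4, GRCm38 chr11:104608000-104670476, plus strand) was at 85.0, 94.7 and 89.1 TPM in D2 siKctd10 libraries, against 13.9, 74.0 and 76.7 TPM in D2 siControl libraries. At D0 Itgb3 was at 33.8, 38.5 and 15.4 TPM in siKctd10 libraries, against 29.4, 32.7 and 31.3 TPM in siControl libraries. The low libraries at D2 and D0 were again those with little coverage of the last exon of 3392 bases, 0.99 in D2 siControl replicate 1 and 19.8 in D0 siKctd10 replicate 3. Without D2 siControl replicate 1 the difference between D2 and D0 in siControl cells was 1.25 on the log2 scale (limma adjusted p = 0.0156), against 0.47 with it (limma adjusted p = 0.580).

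Itgb5 (ENSMUSG00000022817.15, GRCm38 chr16:33829665-33949338, plus strand) was at 320.0, 321 and 331 TPM in D2 siKctd10 libraries, against 269, 72.2 and 251 TPM in D2 siControl libraries. At D0 Itgb5 was at 105, 102 and 94.9 TPM in siKctd10 libraries, against 92.6, 88.6 and 93.5 TPM in siControl libraries. The siKctd10 libraries lay above the siControl libraries on both days, but neither difference was called (log2 fold changes 0.93 at D2 and 0.13 at D0, limma adjusted p = 0.243 and 0.916). The last exon of 682 bases was listed at 3.09 in D2 siControl replicate 2, against 1101 and 932 in the others. Without that library the difference between D2 and D0 in siControl cells was 1.5 (limma adjusted p = 1.88e-06), against 0.88 with it (limma adjusted p = 0.118).

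In siKctd10 cells both rose with differentiation by 1.68 on the log2 scale, Itgb3 with a limma adjusted p of 0.0439 and Itgb5 with 0.00847. Exon-centred levels over the 4 long exons of Itgb3 were 102, 113 and 95.7 in D2 siKctd10 libraries and 87.9, 82.9 and 101 in D2 siControl libraries, against 44.9, 46.1 and 33.2 in D0 siKctd10 libraries and 41.1, 45.9 and 42.1 in D0 siControl libraries. Those over the 6 long exons of Itgb5 were 244, 255 and 285 in D2 siKctd10 libraries and 198, 171 and 211 in D2 siControl libraries, against 94.9, 78.6 and 95.4 in D0 siKctd10 libraries and 67.5, 78.4 and 90.7 in D0 siControl libraries. In this measure the D2 libraries of both arms lay above all D0 libraries for both genes. The change of Itgb3 was 1.31 in siKctd10 cells (limma adjusted p = 5.12e-05) and 1.05 in siControl cells (limma adjusted p = 0.000199). That of Itgb5 was 1.54 in siKctd10 cells (limma adjusted p = 1.53e-05) and 1.29 in siControl cells (limma adjusted p = 4.25e-05). Between siKctd10 and siControl at D2 the exon-centred levels differed by 0.19 for Itgb3 (limma adjusted p = 0.508) and by 0.44 for Itgb5 (limma adjusted p = 0.112).

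In all, 6 of 9 members passed between D2 and D0 in siKctd10 cells, where 36.4% of all kept genes did. Itga4, Itga7, Itgb3 and Itgb5 rose, where 23.1% of all kept genes did, and Itga3 and Itga6 fell, where 13.3% did. The Itgb3 call was lost in 14 of 22 planned settings, with a limma adjusted p of 0.141 without D0 siKctd10 replicate 3. In siControl cells 3 of 9 passed, where 35.5% of all kept genes did, so that the members' count lay near the background. Itga4 and Itga7 rose, where 21.4% of all kept genes did, and Itga3 fell, where 14% did. The comparisons share libraries, and the counts are given side by side only. The median log2 fold change over all kept genes between D2 and D0 was 0.12 in siKctd10 cells and 0.09 in siControl cells, and it was 0.00 and 0.01 with median-ratio scaling. Medians of the 9 members were 0.25 in siKctd10 and 0.17 in siControl cells.

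Beyond the 10 members, 17 further integrin subunits were listed, and 6 of them passed the filter. Itgb7 encodes beta 7, which pairs with alpha 4 (ENSMUSG00000001281.10, GRCm38 chr15:102215995-102231944, minus strand). It was at 8.03, 9.03 and 8.79 TPM in D2 siKctd10 libraries, against 8.47, 5.24 and 7.10 TPM in D2 siControl libraries. At D0 Itgb7 was at 75.5, 87.2 and 77.8 TPM in siKctd10 libraries, against 131, 148 and 146 TPM in siControl libraries. The siRNA groups overlapped at D2 and did not at D0, where the change with siKctd10 was -0.81 on the log2 scale (SE 0.15, limma adjusted p = 0.0220). This call was lost without D0 siControl replicate 1, 2 or 3 or D0 siKctd10 replicate 1 or 3 (limma adjusted p = 0.0602, 0.0831, 0.0731, 0.0693 and 0.0636).

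With differentiation Itgb7 fell by 3.08 on the log2 scale in siKctd10 cells (limma adjusted p = 3.57e-07) and fell by 4.19 in siControl cells (limma adjusted p = 4.58e-08). Its interaction of day and siRNA was 1.11 (SE 0.21, limma adjusted p = 0.0480), a call lost in 17 of 21 planned settings, among them the fits that left out any 1 of 11 libraries. Alpha 4 and beta 7 ran opposite ways between days, with Itga4 higher and Itgb7 lower at D2 than at D0 in both arms.

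The collagen receptor chains Itga10 and Itga11 rose with differentiation, Itga10 by 4.31 in siKctd10 and 3.49 in siControl cells, and Itga11 by 2.84 in siKctd10 and 2.28 in siControl cells. Itga10 was at 47.4, 53.7 and 40.2 TPM in D2 siKctd10 libraries, against 20.7, 33.2 and 28.1 TPM in D2 siControl libraries, a difference that was not called (limma adjusted p = 0.226). Itgb6 rose to means of 10.2 TPM in D2 siKctd10 and 13.5 TPM in D2 siControl cells, and Itgb8 rose to 13.8 TPM in D2 siKctd10 and 11.3 TPM in D2 siControl cells. Itgb4 did not exceed 1.14 TPM in any library and changed between days by 0.73 on the log2 scale in siKctd10 cells (limma adjusted p = 0.00612) and by 0.46 in siControl cells (limma adjusted p = 0.0510). Of the 6 kept further subunits, 0 were higher and 0 lower with siKctd10 at D2, and 0 were higher and 1 lower at D0. Between days 5 rose and 1 fell in siKctd10 cells, and 4 rose and 1 fell in siControl cells, with the backgrounds given above. Itga11 (at most 0.332 TPM at D0) and Itgb4 (at most 0.574 TPM at D0) passed the filter only through D2 libraries. Being higher at D2 was thus partly set by the filter for both, and their part in these counts is a description only. The other 11 subunits, among them the leukocyte chains Itgal, Itgam and Itgax, were left out by the filter, with a highest value of 2.60 TPM for Itgb2.

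**Figure D5:**
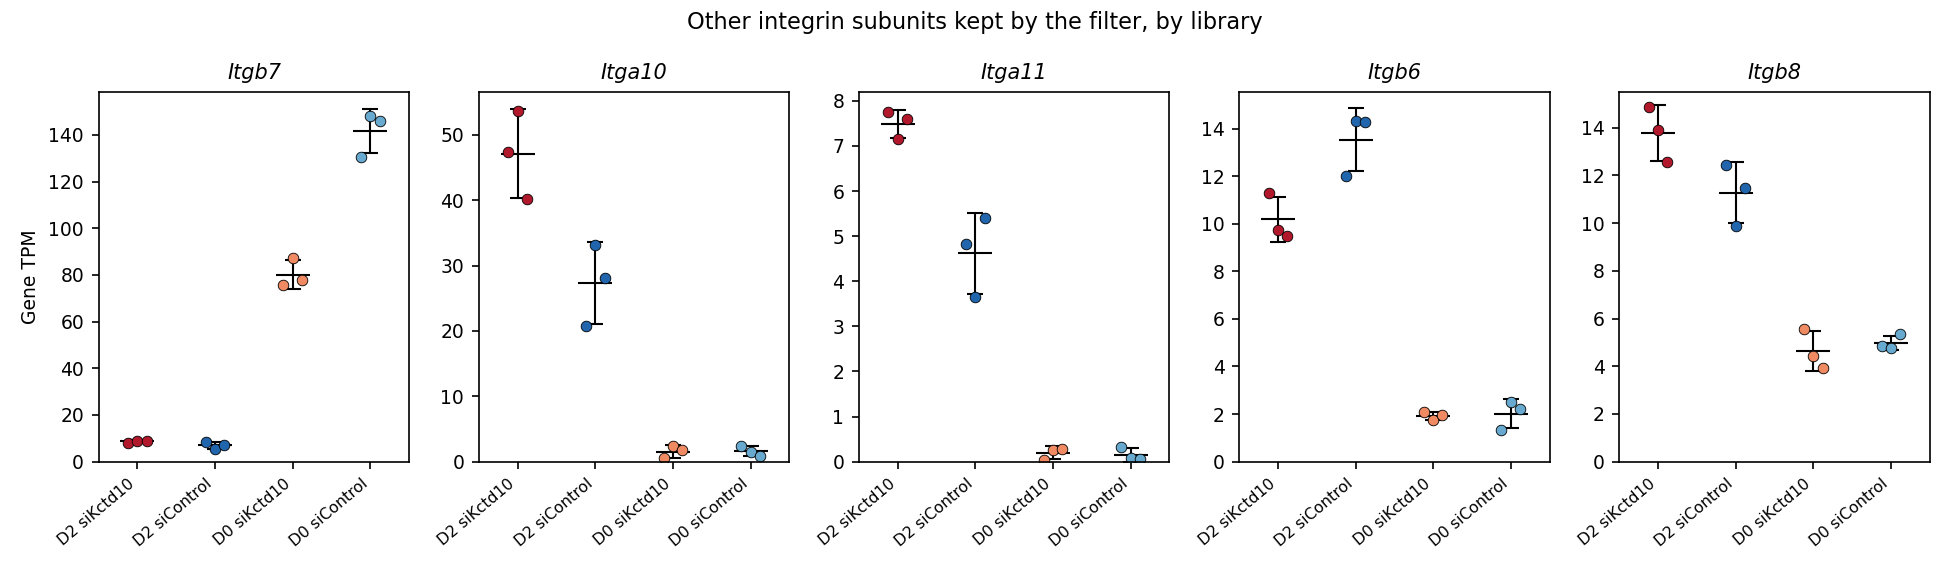
Gene TPM of 5 further integrin subunits in each library, with means and SD (n = 3 each) and axes from 0. Itgb7 lies between 75.5 and 148 TPM in the D0 libraries and at or below 9.03 TPM in the D2 libraries, while the other 4 are higher at D2.

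Genes around the integrins were read from lists of names. Of 42 kept adaptor and signalling genes, 1 was higher and 0 were lower with siKctd10 at D2, and 3 were higher and 0 lower at D0. Over all kept genes 2.83% were higher and 1.92% lower at D2, and 1.48% higher and 0.964% lower at D0, and 1 of 42 at D2 is near that share. Their median log2 fold change was 0.09 at D2 and 0.15 at D0, beside 0.08 and 0.05 over all kept genes. Actn1, an actin crosslinker at adhesions, was the gene higher at D2, with 222 ± 13.2 TPM in siKctd10 and 127 ± 11.2 TPM in siControl cells (SD, n = 3 each, limma adjusted p = 0.0125). At D0 Actn1 was higher by 0.77 on the log2 scale, Fblim1, a filamin-binding protein, by 2.13, and Parvb, a partner of integrin-linked kinase, by 0.49. The siKctd10 libraries spread widely for Fblim1, at 106 ± 44.8 TPM, against 21.7 ± 1.87 TPM in siControl cells at D0 (SD, n = 3 each). Of 19 kept membrane partners, the syndecan Sdc4 was higher at D2 by 0.48 and 1 gene was lower, Art1, a low gene named after its values were seen. The tetraspanin Tspan9 was higher at D0 by 0.64. Their medians were -0.09 at D2 and -0.01 at D0.

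Of 32 kept genes for integrin ligands, 5 were higher and 3 lower with siKctd10 at D2, and 4 were higher and 1 lower at D0, beside the same shares over all kept genes and with medians of 0.17 on both days. Thbs1, thrombospondin 1, was at 2388 ± 956 TPM in siKctd10 and 827 ± 33.1 TPM in siControl cells at D2 (SD, n = 3 each, limma adjusted p = 0.0189), and Nid2, nidogen 2, was higher by 0.77, Svep1, a ligand of alpha 9 beta 1, by 0.71 and Tnc, tenascin C, by 0.65. Ccn3, a matricellular protein, was at 40.4 ± 2.27 TPM in siKctd10 and 224.5 ± 2.09 TPM in siControl cells at D2 (SD, n = 3 each), or -2.45 on the log2 scale (limma adjusted p = 1.03e-05). Ccn2 was lower with siKctd10 at D2 by -0.81 and higher at D0 by 0.75, with an interaction of -1.56 (limma adjusted p = 0.000708). Vcam1, the cell surface ligand of alpha 4 beta 1, was higher with siKctd10 at D0, with 283 ± 16.4 TPM in siKctd10 and 177 ± 6.79 TPM in siControl cells (SD, n = 3 each, limma adjusted p = 0.0205). Npnt, nephronectin, was higher at D0 by 0.63.

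Between D2 and D0, 9 of the 42 adaptor genes rose and 4 fell in siKctd10 cells, and 12 rose and 2 fell in siControl cells. Over all kept genes 23.1% rose and 13.3% fell in siKctd10 cells, and 21.4% rose and 14% fell in siControl cells, and these shares stand beside the counts of all 3 lists. Itgb1bp2, melusin, a muscle protein that binds the beta 1 tail, was at 11.7 ± 1.26 TPM in D2 siKctd10 and 22.3 ± 2.53 TPM in D2 siControl cells, against 1.14 ± 0.507 TPM in D0 siKctd10 and 2.10 ± 0.814 TPM in D0 siControl cells (SD, n = 3 each). Vcl, vinculin, rose in siKctd10 cells by 0.80 on the log2 scale. Of the 32 ligand genes, 15 rose and 4 fell in siKctd10 cells, and 17 rose and 2 fell in siControl cells. Postn, periostin, rose by 4.30 in siKctd10 cells and 3.85 in siControl cells. Its D0 means were 0.637 TPM with siKctd10 and 0.607 TPM with siControl, so it passed the filter only through D2 libraries. Its rise was thus partly set by the filter, and its part in the ligand counts is a description only. Nid1, the laminin-binding nidogen 1, was at 663 ± 43.3 TPM in D2 siKctd10 and 581 ± 33.4 TPM in D2 siControl cells. Its D0 means were higher, at 1492 TPM with siKctd10 and 1251 TPM with siControl. Lama2, the alpha 2 chain of muscle laminin, rose by 2.14 in siControl cells. Of the 19 membrane partners, 6 rose and 1 fell in siKctd10 cells, and 9 rose and 2 fell in siControl cells. Dag1, the laminin-binding dystroglycan, rose by 1.14 in siKctd10 and 1.02 in siControl cells.

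The genes closest in pattern to 3 members were taken from 2514 single-transcript genes by Pearson's r of log2(TPM + 1) over the 12 libraries, which share 4 groups and one differentiation step. Ccn3 was closest to Itga4 (r = 0.996), followed by 4833415N18Rik (0.987) and Cxcl13 (0.986). BC025446 (0.983), Xpot (0.961) and Fam91a1 (0.959) were closest to Itga3. Amacr, Map3k7cl and Klhl41 were closest to Itga7, each with r of 0.994. These values describe the libraries and carry no test.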

How the data were processed

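C2C12 RNA was sequenced in 12 libraries, 3 in each of 4 groups. The deposited files are transcript lists with coverage, FPKM and TPM, made by StringTie 1.3.3b per the file headers. HISAT, SAMtools, DESeq2, the mm10 build and StringTie 1.1.3 are listed in the submitters' processing notes, and why the versions differ is not given in the sources used here. These values are not counts, and the per-transcript attributes of the deposited files hold no read counts.

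The 63759 transcripts were matched by coordinates to genes of GENCODE M21 (GRCm38, the same assembly as mm10), on identical introns (42608) or else on an overlap of at least 50% (13473). The 7678 unmatched transcripts held 3.82 to 4.63% of TPM. TPM was summed per gene, and 13076 genes with at least 1 TPM in at least 3 libraries were kept. Group means of log2(TPM + 1) were compared with limma 3.58.1 in R 4.3.3 (trend and robust options, 8 residual degrees of freedom, two-sided, Benjamini-Hochberg over all kept genes, threshold 0.05). The fit across all genes was tested on simulated data. Read pairs were estimated from coverage and length, at 202 bases per pair.

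Scaled reads per base are exon coverage scaled to a common total per library. Exons shorter than a pair were often listed near 0, so gene TPM rests mainly on long exons, and the exon-centred level over exons of at least 202 bases with a mean of at least 1 scaled read per base was added after seeing the data.

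The 10 members and all gene lists were chosen with earlier results of these data known. All members were described. Of the other lists, up to 4 genes per direction and comparison with a mean of at least 5 TPM in the higher group were eligible to be named. The 5 comparisons share libraries. Replicates were compared pair by pair, and none agreed within sampling noise. Whether replicate numbers pair the samples was not settled, and the main fit left them out.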

Additional observations from a re-analysis of the deposited data

Results flagged for a closer look

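The interaction of day and siRNA, which tests whether the effect of siKctd10 at D2 differed from that at D0, passed the threshold for 2 integrin genes. For Itga4 the effect was -1.91 at D2 and -0.62 at D0 on the log2 scale, a difference of -1.29 (SE 0.20, limma adjusted p = 0.0194). For Itgb7 it was 0.30 at D2 and -0.81 at D0, a difference of 1.11 (SE 0.21, limma adjusted p = 0.0480). The Itga4 call was lost in 7 of 21 planned settings, and the Itgb7 call in 17 of 21. The Itga4 interaction was also not called in the exon-centred level, which was not planned (-1.22, limma adjusted p = 0.281). Groups of 3 libraries are too small for a test of single outlying libraries, so none was made.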

How the results depend on the processing

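Of 1140 log2 fold changes of the members and Itgb7 recomputed under another setting, 1032 kept their direction and their side of the threshold, 18 newly passed it and 53 lost it. The other 37 changed sign and were called under neither setting, and 0 called ones changed sign. Where no cause is named, the cause was not tested. The members called between siKctd10 and siControl at D0 numbered 2 in place of 1 with a pseudocount of 0.1, median-ratio scaling, quantile normalization or voom, since Itga4 then passed (limma adjusted p = 0.0239, 0.0290, 0.0432 and 0.0197). Members with a called interaction numbered 2 in place of 1 with median-ratio scaling, quantile normalization and voom, where Itga6 passed (limma adjusted p = 0.0210, 0.0412 and 0.0409), and 0 with a pseudocount of 0.1 or exon-centred levels. Interactions over all genes numbered 62 in place of 97 with that pseudocount. Fits of only the groups compared, which have fewer residual degrees of freedom, called 72 genes at D0 in place of 320 and 252 at D2 in place of 621. Exon-centred levels, chosen after seeing the data, called 196 genes at D0, 2 members at D2 in place of 4, and 5 members in place of 3 between days in siControl cells.

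Leaving out 1 library at a time gave between 118 and 306 genes at D0, 315 and 682 at D2, 4031 and 4650 between days in siKctd10 cells, 3938 and 4799 in siControl cells, and 52 and 82 interactions. Members called ranged from 1 to 1 at D0, 2 to 4 at D2, 5 to 6 between days in siKctd10 cells, 3 to 4 in siControl cells, and 0 to 2 interactions. The lowest counts came without D0 siControl replicate 1 at D0 and without D2 siControl replicate 1 at D2. Itga3 stayed called at D0 in all 22 planned settings, with a limma adjusted p of at most 0.0389.

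Whether replicate numbers pair the samples was not settled. The correlation of same-numbered deviations ran from -0.0214 to 0.202, and that of different-numbered ones from -0.142 to 0.0657. At D0 the same-numbered values were 0.0328, 0.0156 and 0.0342, and the others were all negative. Between days in siKctd10 cells the same-numbered values were 0.0914, 0.0465 and 0.202. At D2, and between days in siControl cells, some different-numbered values lay above all same-numbered ones. A fit with the replicate number as a block called 0 members and 42 genes in the interaction (Itga4 limma adjusted p = 0.0542, Itgb7 0.120), and Itgb3 between days in siKctd10 cells had 0.0540.

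The depth of 12510887 to 18082111 estimated read pairs, the spread of 3 libraries per group and the listed coverage of last exons limit the beta chains and Itga5 most. Only 1 siRNA was used, and no level of protein was measured.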
